A study of Mus musculus with 14 samples.

Results

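The comparison described here set GFP+CD11b+ myeloid cells from the spleens of mice with intracranial PyMT tumors against the same sort from the spleens of naïve mice. It comprised 5 of the 14 arrays of the series: the 3 titled PyMT-S and the 2 titled naïve-S. They were taken by title, and all probes were used except those of genes on chromosomes X and Y. All mice were C57Bl/6J and 14 weeks old. The PyMT mice were chimeras whose marrow came from donors expressing GFP under the ubiquitin C promoter, and they had received untagged PyMT breast cancer cells in the brain 2 weeks before. The naïve mice had no tumor, and the sources do not state plainly whether they were chimeras. They stood in for EO771 tumor-bearing mice, whose spleens gave no viable cells. Tumor, chimerism and the batch of mice and arrays therefore cannot be told apart in any difference given here. By the codes in the titles, PyMT-S 1 shared its mouse with the single PyMT bone marrow array, and naïve-S 1 with both naïve bone marrow arrays. Each array was treated as 1 sample. The p-values rest on the spread within the 6 conditions of the whole series, not on that of the spleen arrays alone.

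CD11b marks neutrophils, monocytes, many macrophages and a part of the dendritic cells. In the spleen, a mouse organ that also makes blood cells, red pulp macrophages take up old red cells and recycle their iron, marginal zone macrophages filter the blood, and dendritic cells present antigen on MHC class II. Tumors are known to raise granulocyte production in marrow and spleen, and immature neutrophils and monocytes of tumor-bearing animals can restrain T cells. The comparison addresses whether the splenic myeloid cells of a mouse with a tumor in the brain differed from those of a mouse without one.

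Of 44027 probes outside X and Y, limma called 11 higher (0.025%) and 38 lower (0.0863%) in the PyMT spleens at an adjusted p under 0.01. A gene was represented by its brightest probe, which left 18327 named genes, of which 0 were higher (0%) and 12 lower (0.0655%). Hence few probes were called, and with all 5 arrays most of them were lower. At an adjusted p under 0.05 the probes were 413 higher (0.938%) and 726 lower (1.65%), and the genes 177 higher (0.966%) and 306 lower (1.67%). Unadjusted p-values were under 0.05 for 8542 probes. The calls needed the spread of the whole series: with spleen arrays alone, or with spleen and bone marrow arrays, limma called 0 probes, while 5264 and 6622 had an unadjusted p under 0.05. Leaving out 1 array gave 23 calls without PyMT-S 1, 0 without PyMT-S 3, 4 (3 higher, 1 lower) without naïve-S 1 and 14 (14 higher, 0 lower) without naïve-S 2, so the balance of directions turned when a naïve spleen was left out. The naïve bone marrow arrays share 1 mouse code and count as 2 samples in the fit. Taken as 1 sample, they left 0 calls with all 5 arrays, at 7988 unadjusted p-values under 0.05, and 3 without PyMT-S 2. Centring on reference genes gave 5 higher and 3 lower probes with all 5 arrays.

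PyMT-S 2 stood apart from the other spleens, so results are also given without it. The root mean square log2 difference over probes between PyMT-S 2 and PyMT-BM 1 was 0.72, and between PyMT-S 2 and the naïve bone marrow arrays 0.80 and 0.81. To the other 4 spleens it was 0.98 to 1.03. PyMT-S 2 thus lay closer to bone marrow than to spleen. PyMT-S 1 and PyMT-S 3 differed by 0.78, and the naïve spleens by 0.63. Without PyMT-S 2, 37 probes were higher (0.084%) and 124 lower (0.282%) at 0.01, and 675 (1.53%) and 1250 (2.84%) at 0.05. Of the named genes, 2 were higher (0.0109%) and 48 lower (0.262%) at 0.01, and 310 (1.69%) and 502 (2.74%) at 0.05. Both comparisons shared 10 of the higher and 36 of the lower probes at 0.01. PyMT-S 2 itself lay below both naïve spleens in 120 of the 124 probes that were lower without it. It lay above both in 26 of the 37 that were higher, and below both in 10. These probes were chosen with the same naïve arrays, and the share over all probes was not counted. The counts are therefore no separate check of the calls. Centring on reference genes gave 19 higher and 26 lower probes without PyMT-S 2, and leaving out either naïve spleen as well gave 0.

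**Figure D1:**
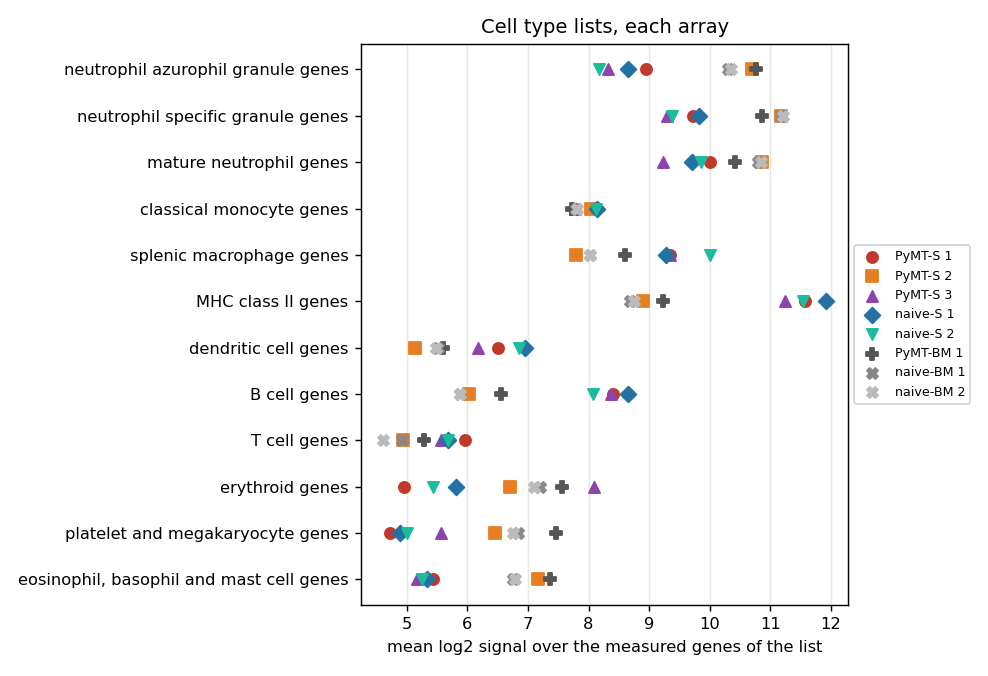
Mean log2 signal (x axis) over the measured genes of 12 cell type lists (rows) in each of the 5 spleen and 3 bone marrow arrays, 1 point an array. PyMT-S 2 sits with the bone marrow arrays for azurophil granule, MHC class II and B cell genes, while PyMT-S 1 and PyMT-S 3 sit near the naïve spleens; erythroid genes run from 4.95 in PyMT-S 1 to 8.09 in PyMT-S 3.

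At their brightest probes, Spic, Vcam1 and the B cell genes did not set PyMT-S 1 and PyMT-S 3 apart from the naïve spleens by the test. In PyMT-S 2, Spic, Vcam1 and the mean over B cell genes were lower. Other macrophage genes are given further below. Spic, the transcription factor of red pulp macrophages, had log2 signals of 11.47, 7.93 and 10.96 in PyMT-S 1, 2 and 3 and of 11.13 and 11.69 in the naïve spleens. The 3 bone marrow arrays had 7.76 to 9.38. In PyMT-S 2 Spic was thus at the bone marrow level, while PyMT-S 1 lay between the naïve spleens and PyMT-S 3 just below both. The Spic difference was -1.28 (SE 0.83, adjusted p = 0.422 by limma) with all 5 arrays and -0.19 (SE 0.48, adjusted p = 0.856) without PyMT-S 2. Vcam1, an adhesion molecule of red pulp macrophages, had a difference of 0.00 (SE 0.39, adjusted p = 0.999) without PyMT-S 2, from -0.79 with it. A dim Vcam1 probe, with means of 2.72 in the PyMT and 4.56 in the naïve spleens, was lower. It differed by -1.84 (adjusted p = 0.0227), and by -1.91 (adjusted p = 0.0245) without PyMT-S 2. The remaining Vcam1 probes differed by 0.24 and -0.32 with all 5 arrays. The B cell receptor component Cd79b moved as the brightest Vcam1 probe did, from -1.10 to 0.07 (adjusted p = 0.495 and 0.924). PyMT-S 2 had 8.80 for Cd79b against 12.08 to 12.41 in the other spleens. B cells are not the labelled cell type, and the mean over 19 B cell genes was 8.07 to 8.65 in the other 4 spleens, PyMT and naïve, and 6.03 in PyMT-S 2. Their part in the differences was not tested. The T cell gene Cd3e had 6.81, 3.36 and 6.36 against 5.99 and 5.56, and Flt3, a receptor of dendritic cell precursors, had 3.44, 3.28 and 2.89 against 4.03 and 3.63. PyMT-S 1 and PyMT-S 3 lay above both naïve spleens for Cd3e (difference 0.81 without PyMT-S 2, adjusted p = 0.37) and all PyMT spleens below both for Flt3 (-0.63, adjusted p = 0.246, and -0.67, adjusted p = 0.223, without PyMT-S 2), and neither gene passed the test. For a sorted bulk sample, fewer cells of a type and less RNA per cell cannot be told apart.

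Granule genes showed the reverse order. The mean over 11 azurophil granule genes, which neutrophil precursors make, was 8.96, 10.70 and 8.31 in PyMT-S 1, 2 and 3, 8.65 and 8.17 in the naïve spleens, and 10.30 to 10.77 in bone marrow. Mpo, the myeloperoxidase of these granules, had 10.95, 13.11 and 10.83 against 10.89 and 10.58. Only PyMT-S 2 was higher than the naïve range by more than the naïve spleens differed. The Mpo difference was 0.89 (SE 1.05, adjusted p = 0.687) with PyMT-S 2 and 0.15 (SE 1.09, adjusted p = 0.953) without it. The specific granule and mature neutrophil lists had means of 9.29 to 11.18 and of 9.23 to 10.85 in the 5 spleens. Of their genes, Ltf and S100a8 were close to the top of the scale in all 5. Ltf, the lactoferrin of specific granules, ran from 14.11 to 14.46, and S100a8, a calcium-binding protein of neutrophils, from 13.83 to 14.19. The highest value of an array was 14.58, so these probes had little room above them. Of 21 specific granule genes, 1 was higher at 0.05 (against 0.966% of all genes): Orm1, an acute-phase carrier protein, with 10.46, 11.72 and 10.24 in the PyMT spleens against 9.06 and 8.80. All 3 PyMT spleens lay above both naïve ones, by 1.88 (adjusted p = 0.0257), and by 1.42 (adjusted p = 0.011) without PyMT-S 2. Without PyMT-S 2, Abca13, a lipid transporter, was also higher (0.88, adjusted p = 0.0458) and 2 genes were lower, Anxa1, a regulator of inflammation (-1.68, adjusted p = 0.0485), and Wfdc21 (-1.93, adjusted p = 0.0444). The shares over all genes were 1.69% higher and 2.74% lower. The Orm1 signals in bone marrow were 11.28 in the PyMT array and 11.12 and 11.02 in the naïve arrays.

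Eosinophil and red cell transcripts varied widely between the PyMT spleens. Prg2, the major basic protein of eosinophils, had 9.12, 14.02 and 9.55 in PyMT-S 1, 2 and 3 and 6.75 and 6.91 in the naïve spleens. Every PyMT spleen lay above the naïve ones, and PyMT-S 2 reached the 13.24 to 14.37 of bone marrow. The difference was 4.07 (SE 1.26, adjusted p = 0.108), or 2.50 (SE 0.88, adjusted p = 0.128) without PyMT-S 2, and was not called. Over all 18 eosinophil, basophil and mast cell genes none was called at 0.01 in either comparison. Hba-a1, a globin of red cells, had 10.35 in PyMT-S 1, 14.34 in PyMT-S 2 and 14.46 in PyMT-S 3, against 12.68 and 13.58 in the naïve spleens. The PyMT spleens therefore lay on both sides of the naïve ones, and the difference was -0.08 (SE 1.45, adjusted p = 0.983). Of 24 erythroid genes, 1 was higher at 0.05 (against 0.966% of all genes): Fech, which inserts iron into haem, by 1.33 (adjusted p = 0.0162, and 0.0154 without PyMT-S 2). Pf4, the platelet chemokine, had 3.75, 5.80 and 4.62 against 4.89 and 5.35.

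The 12 genes called with all 5 arrays were all lower in the PyMT spleens. They were Pla2g7, Cd48, Hps5, Rpf2, Ice2, Nufip2, Prpsap2, Hsp90aa1, Zfp84, Irs3, Gpr65 and Ctnnb1, and they spanned differences from -2.61 to -1.59. Pla2g7, which encodes a lipase that inactivates platelet-activating factor and is secreted by macrophages, lies on chromosome 17 at 43567994 to 43612202 (GRCm38.p6). The Pla2g7 signal was 5.94, 6.23 and 5.52 in the PyMT spleens and 8.27 and 8.53 in the naïve spleens. All PyMT spleens were lower, by 5.67-fold or -2.50 on the log2 scale (SE 0.34, adjusted p = 0.00853). Cd48, on chromosome 1 at 171681245 to 171705258, encodes the ligand of the lymphocyte receptor CD244. Its signal was 3.58, 2.99 and 2.74 against 5.68 and 5.74, a difference of -2.61 (SE 0.32, adjusted p = 0.0068). The PyMT values lay under the array median of 4.06, where signal is close to background, so that the fold of Cd48 is limited by it.

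Gpr65, a receptor that senses acid, gave the tightest PyMT values among the 12. They were 7.30, 7.34 and 7.35, against 8.85 and 9.19, and the difference was -1.69 (SE 0.23, adjusted p = 0.00853). Ctnnb1, the beta-catenin of cell adhesion and Wnt signaling, had 8.50, 8.34 and 8.19 against 9.95 and 9.92 (difference -1.59, SE 0.22, adjusted p = 0.00934). Hsp90aa1, an inducible chaperone, had 4.43, 4.47 and 4.75 against 6.51 and 6.44. It was lower in every PyMT spleen, by -1.93 (SE 0.26, adjusted p = 0.00853), and was the single called member of 41 immediate-early and stress genes. Hps5 is part of a complex that forms lysosome-related organelles, and it fell by 2.57 (adjusted p = 0.00853). Rpf2, a ribosome assembly factor, fell by 2.32 (adjusted p = 0.00844). Ice2, of the complex that elongates small nuclear RNAs, fell by 2.25 (adjusted p = 0.0068). Nufip2 and Zfp84, proteins that bind RNA or DNA, fell by 2.24 and 1.79. Prpsap2, which associates with the enzyme of nucleotide precursor synthesis, fell by 2.23, and Irs3, an insulin receptor substrate, by 1.71. All these falls are those of the brightest probe, and other probes of several of the genes, given further below, did not fall alike. The PyMT values of Nufip2 (2.33 to 3.08) and Irs3 (2.37 to 2.75) lay under the array median of 4.06. The naïve Irs3 values of 4.24 and 4.29 were just above it, so the folds of both genes are limited by background as well. In none of the 12 did a PyMT spleen reach a naïve one. The naming rule required this and it held for all 38 probes called lower, so it adds no support to the calls.

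**Figure D2:**
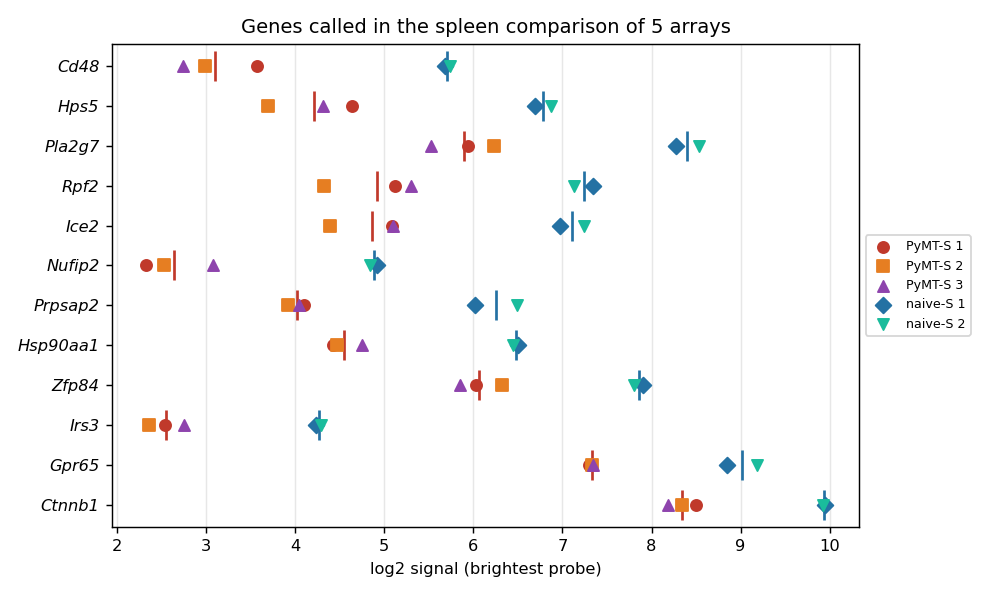
Log2 signal of the brightest probe (x axis) of the 12 called genes (rows) in the 5 spleen arrays, 1 point an array, with vertical ticks at the means of the PyMT (red) and naïve (blue) spleens. The PyMT points, PyMT-S 2 included, sit to the left of both naïve points in every row, as the naming rule required.

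Without PyMT-S 2 the 12 largest falls were Snx1, Olfr1339, Selenok, Sp1, Pla2g7, Kpnb1, Ccdc88b, Cd48, Sdhd, Ndufb9, Rchy1 and Cyfip2. Several of these have PyMT values under the array median, and Olfr1339, an olfactory receptor, had 0.73 and 0.38 against 3.60 and 4.07, with the naïve mean under it too, so their order by size is not firm. Snx1, a protein of endosome sorting, had 1.72 and 3.66 in PyMT-S 1 and 3 and 6.82 and 6.30 in the naïve spleens. The PyMT values lay under the array median, and the difference was -3.86 (SE 0.54, adjusted p = 0.00965). PyMT-S 2 had 4.07, also below both naïve spleens. Selenok, a selenoprotein of the endoplasmic reticulum, had 3.99 and 3.60 against 7.02 and 7.01, a difference of -3.22 (SE 0.35, adjusted p = 0.00565). Sp1, a transcription factor that binds GC boxes, differed by -2.78 (SE 0.36, adjusted p = 0.00813), with 3.29 and 3.20 against 6.22 and 5.83. For both genes PyMT-S 2 was intermediate, with 5.49 and 5.41, and the difference with all 5 arrays was not called at 0.01 (adjusted p = 0.0211 and 0.0777). Kpnb1, a nuclear import receptor, fell by 2.59 and Ccdc88b, a protein of T cell and myeloid activation, by 2.55. A second, dim Ccdc88b probe went the other way (difference 1.82, adjusted p = 0.142 by limma). Sdhd and Ndufb9, subunits of the respiratory chain, fell by 2.49 and 2.44. They were the 2 called members of 76 respiratory chain genes, whose median difference was 0.17, against 0.05 over all genes. The 2 rises were Mrgpra3, a receptor of sensory neurons, and Sbp, a spermine-binding protein of the prostate. Mrgpra3 had 4.62 and 3.76 against 1.74 and 1.06 (difference 2.79, adjusted p = 0.00813). Sbp had 4.62 and 4.58 against 2.36 and 3.02 (difference 1.91, adjusted p = 0.00967). The naïve values of both lay under the array median of 4.06, close to background, so these differences are not exact folds.

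The leukocyte antigen Ptprc (CD45) did not reach the threshold but moved in the same direction. The Ptprc signal was 5.07, 6.25 and 4.12 in the PyMT spleens and 7.54 and 6.87 in the naïve spleens. The difference was -2.06 (SE 0.51, adjusted p = 0.0568), or -2.61 (SE 0.41, adjusted p = 0.0122) without PyMT-S 2. Of its other 3 probes, all dimmer, the differences were -1.59 (adjusted p = 0.0414), -0.26 and 0.81. Itgam, which encodes the CD11b of the sort, had 6.35, 8.87 and 5.74 against 6.18 and 5.79. Only PyMT-S 2 stood out, near the 8.26 to 8.42 of bone marrow, and the difference was 0.06 (SE 0.30, adjusted p = 0.93) without it.

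The promoters of 3 of the 12 genes are shown because these genes fell together and have different letters around a start site. Each is a window of 300 bases around the start site (RefSeq, GRCm38.p6, plus strand), with matches to a CCAAT box (CCAAT) or GC box (GGGCGG) in capitals, on either strand. The promoters are at chr17:43568201-43568500 for Pla2g7, chr9:120933150-120933449 for Ctnnb1 (the first of 2 listed) and chr1:171681742-171682041 for Cd48. Those of Pla2g7 and Cd48 lie within the gene spans given above and not at their first base.
Pla2g7: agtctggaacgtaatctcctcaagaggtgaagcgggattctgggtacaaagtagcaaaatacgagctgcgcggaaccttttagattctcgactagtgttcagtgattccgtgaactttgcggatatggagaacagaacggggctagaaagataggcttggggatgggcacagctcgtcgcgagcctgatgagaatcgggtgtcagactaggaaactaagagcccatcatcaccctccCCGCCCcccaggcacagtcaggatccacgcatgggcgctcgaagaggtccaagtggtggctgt
Ctnnb1: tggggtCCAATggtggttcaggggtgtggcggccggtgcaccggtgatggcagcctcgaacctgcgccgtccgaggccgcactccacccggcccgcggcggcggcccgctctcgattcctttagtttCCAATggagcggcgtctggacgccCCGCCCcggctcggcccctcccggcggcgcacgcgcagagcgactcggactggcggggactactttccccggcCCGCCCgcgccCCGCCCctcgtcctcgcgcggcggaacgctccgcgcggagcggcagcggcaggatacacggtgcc
Cd48: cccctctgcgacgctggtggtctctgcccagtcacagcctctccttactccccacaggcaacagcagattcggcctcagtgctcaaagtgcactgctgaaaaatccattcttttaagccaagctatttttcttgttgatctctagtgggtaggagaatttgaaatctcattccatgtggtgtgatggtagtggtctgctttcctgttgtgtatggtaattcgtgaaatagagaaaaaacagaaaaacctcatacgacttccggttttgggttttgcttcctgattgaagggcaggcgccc
The Pla2g7 promoter held 1 GC box, that of Ctnnb1 3 GC boxes and 2 CCAAT boxes, and that of Cd48 neither. Promoters were found for 11 of the 12 genes, of which 6 held a GC box in at least 1 promoter and 5 a CCAAT box. Over all 27025 genes with a promoter the shares were 38.2% and 41.1%. The motifs do not overlap each other. They are matches of letters and not sites.

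The lower probes were also lower in PyMT arrays of the other tissues, whose values did not enter the spleen difference but gave part of the spread used to call it. All 38 probes that were lower in the PyMT spleens were lower in PyMT-BM 1 than in both naïve bone marrow arrays, and 37 of them were lower in all 4 PyMT BrM than in both EO771 BrM. Over all probes these shares were 37.5% and 17.2%. The median difference of the 38 was -1.75 in bone marrow and -1.47 in BrM. Of the 11 higher probes, 10 were higher in PyMT-BM 1, while in BrM 4 were higher in all PyMT arrays and 3 lower, where the shares over all probes were 41.5% and 18.8%. At an adjusted p under 0.05, 659 of the 726 lower probes were lower in bone marrow as well and 572 in BrM. The BrM comparison sets one tumor line against another, and what these shared differences come from was not tested. Pla2g7 had 4.66 in PyMT-BM 1 against 8.03 and 8.04 in naïve bone marrow, and 6.12 to 7.33 in PyMT BrM against 9.02 and 8.83 in EO771 BrM. Ptprc had 4.40 against 7.48 and 7.33, and 4.89 to 5.88 against 7.16 and 7.49. By the codes in the titles, the 3 PyMT spleens come from 3 of the 4 mice of the PyMT BrM arrays, and PyMT-S 1 also shares its mouse with PyMT-BM 1, so these are not separate animals. The spleen difference minus the bone marrow difference was called for 0 probes (0%) by limma, with 2372 at an unadjusted p under 0.05 and a lowest adjusted p of 0.0514. With 1 PyMT bone marrow array, that does not show that the differences were alike.

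**Figure D3:**
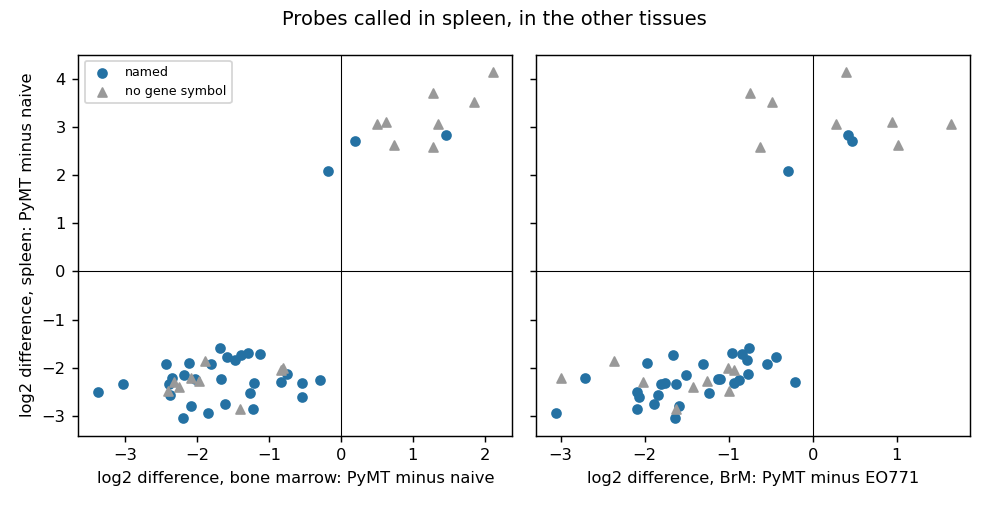
Log2 difference in spleen (y axis, PyMT minus naïve) of the 49 probes called there, against their difference in bone marrow (left, x axis) and in BrM (right, x axis, PyMT minus EO771), 1 point a probe, with probes without a gene symbol as grey triangles. The 38 probes lower in spleen all lie to the left of 0 in bone marrow.

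Other probes of the same genes often did not move. The 29 named genes with a probe called lower included 25 with at least 1 probe that was not called, 50 such probes in all, of which 33 had the same sign and the median difference was -0.25. In 12 of the 29 the called probe was the brightest. The following genes lie outside the naming rule and were chosen after their values were seen. Hspa8, a chaperone that cells make constantly, had a probe with 7.69 in the PyMT and 10.49 in the naïve spleens on average, a difference of -2.80 (adjusted p = 0.0068). Its brighter probes differed by -0.51 (adjusted p = 0.269) and -0.18 (adjusted p = 0.817). Eif4a2, a helicase of translation initiation, had a dim probe with -3.06 (adjusted p = 0.0068) and a bright one with -0.08 (adjusted p = 0.908). Skil, a repressor of TGF-beta signaling, had -2.33 (adjusted p = 0.0068) and, at the brightest probe, -0.23 (adjusted p = 0.623). In these 3 genes the fall belonged to 1 probe and not to the brightest signal of the gene. Zfp84, one of the 12, had a dim probe that was higher in the PyMT spleens, 4.07 against 2.52 on average (difference 1.55, adjusted p = 0.0292, and 1.66, adjusted p = 0.0261, without PyMT-S 2), opposite to its brightest probe. Ctnnb1 had a second probe with -1.36 (adjusted p = 0.0414) and 2 more with -0.20 and 0.42. Of the 11 higher probes 8 had no gene symbol (72.7%, against 23.6% of all probes outside X and Y), and 28 of the 37 without PyMT-S 2 (75.7%). The 3 named ones were Kcnk9, Bicc1 and Epha5, and in none was the called probe the brightest.

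Among 39 gene lists, which held 859 measured genes, 37 had no member called at 0.01 with all 5 arrays and 36 without PyMT-S 2. The exceptions were the suppressive myeloid cell list through Pla2g7, the stress list through Hsp90aa1 and, without PyMT-S 2, the respiratory chain. Only some of the members at an adjusted p under 0.05 are given below by list, chosen after their values were seen. Members of the cell cycle, glycolysis and other lists are left out. Of the 76 respiratory chain genes, 4 were lower at 0.05 with all 5 arrays (5.26%, against 1.67% of all genes). Without PyMT-S 2 they were 5 (6.58%, against 2.74%). Higher without PyMT-S 2 were Cd247 of the T cell list (1.57, adjusted p = 0.0337) and Egfl7 of the stem cell list (3.10, adjusted p = 0.0374).

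Some macrophage genes were lower in the PyMT spleens by the test, while the brightest probes of Spic and Vcam1 were not. Of 27 splenic macrophage genes, 3 were lower at 0.05 with all 5 arrays (11.1%, against 1.67% of all genes) and 4 without PyMT-S 2 (14.8%, against 2.74%). The median difference of the list was -0.79 with all 5 arrays and -0.12 without PyMT-S 2. In the latter comparison 11 genes had a positive and 16 a negative difference. Timd4, a receptor for dying cells, had 4.34, 4.58 and 5.31 in the PyMT spleens and 6.54 and 7.34 in the naïve spleens (difference -2.19, adjusted p = 0.0123, and -2.12, adjusted p = 0.0172, without PyMT-S 2). Hpgd, which breaks down prostaglandins, had 8.19, 5.75 and 7.54 against 10.10 and 10.40 (difference -3.09, adjusted p = 0.0366, and -2.39, adjusted p = 0.0407, without PyMT-S 2). Adgre1, the antigen F4/80, had 8.66, 8.03 and 8.38 against 9.56 and 9.92 (difference -1.38, adjusted p = 0.0376, and -1.22, adjusted p = 0.0498, without PyMT-S 2). All PyMT spleens lay below the naïve ones in these genes, as in all 726 probes lower at 0.05 with all 5 arrays. Marco, a scavenger receptor of marginal zone macrophages, differed by -1.46 (adjusted p = 0.0312) without PyMT-S 2, with 5.33 and 6.14 against 7.11 and 7.28. Cd163, the haptoglobin-haemoglobin receptor, had 7.64, 7.29 and 7.19 against 9.58 and 11.62, and the difference of -3.22 (SE 0.95, adjusted p = 0.094) was not called. Against these, C1qb, Fcna, Axl and Hmox1 differed by -0.22 to 0.22 without PyMT-S 2. Slc40a1, the iron exporter, had 13.56, 12.39 and 12.99 against 13.80 and 13.95 (adjusted p = 0.333, and 0.521 without PyMT-S 2). Values in bone marrow bear on these genes: the difference of PyMT-BM 1 from naïve bone marrow was -1.07 for Timd4 and -1.26 for Hpgd, -0.14 for Adgre1 and 1.01 for Marco.

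**Figure D4:**
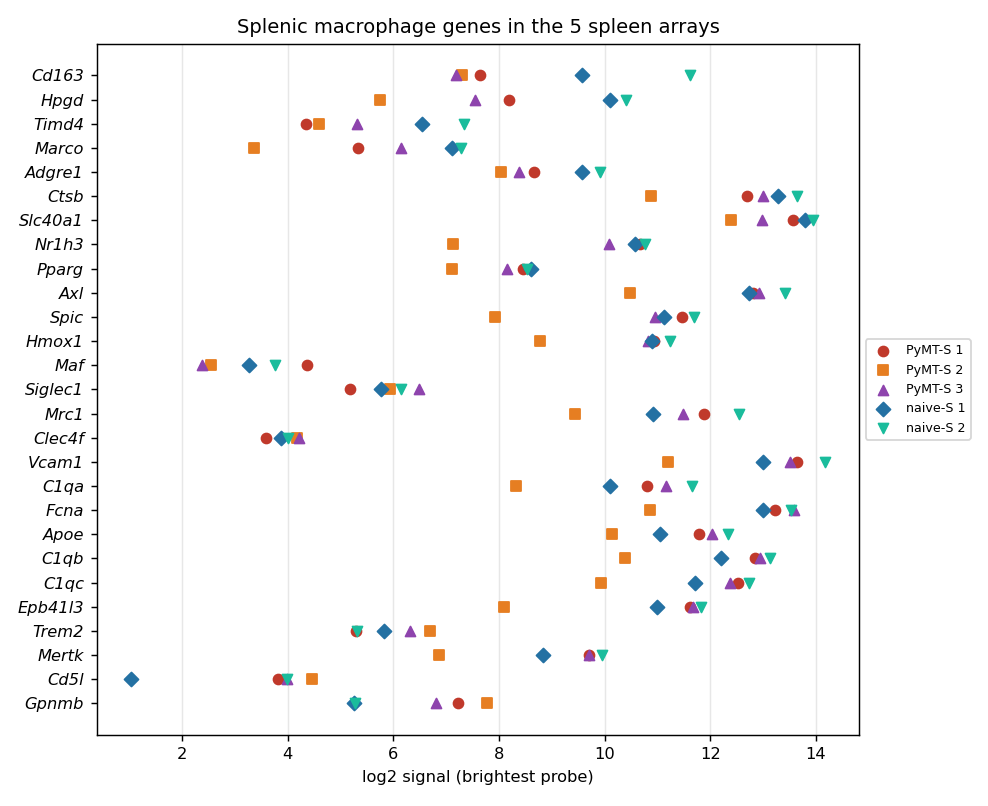
Log2 signal of the brightest probe (x axis) of the 27 measured splenic macrophage genes (rows, sorted by the difference without PyMT-S 2) in the 5 spleen arrays, 1 point an array. Cd163, Hpgd, Timd4, Marco and Adgre1, at the top, have all PyMT points left of both naïve points, and for Vcam1 and the C1q genes PyMT-S 2 lies to the left of the other 4 arrays.

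Of 11 MHC class II genes, all had a negative difference with all 5 arrays (median -0.86, against 0.04 over all genes), and 8 without PyMT-S 2 (median -0.10, against 0.05). At an adjusted p under 0.05, 1 was lower with all 5 arrays, H2-Aa (-2.63, adjusted p = 0.0414), against 1.67% of all genes, and 2 without PyMT-S 2, against 2.74%. H2-Ab1 and Cd74, the class II beta chain and invariant chain, differed by -0.04 (SE 0.29) and 0.06 (SE 0.29) without PyMT-S 2, with signals of 13.99 to 14.29 in the 4 arrays, close to the highest value of 14.58. H2-Aa, the alpha chain, had 10.48 and 9.82 against 12.33 and 11.76 (difference -1.89, adjusted p = 0.0254), and PyMT-S 2 had 7.94. H2-Eb2 differed by -1.34 (adjusted p = 0.0188), and the 9 remaining class II genes did not pass. Of 20 dendritic cell genes, 1 was lower at 0.05 with all 5 arrays (against 1.67% of all genes) and 2 without PyMT-S 2 (against 2.74%). They were Kmo, an enzyme of tryptophan breakdown, with 4.12 and 3.27 against 6.64 and 6.16 (difference -2.70, adjusted p = 0.0202, and -2.69, adjusted p = 0.0142, with all 5 arrays), and, without PyMT-S 2, Clec10a, a lectin (difference -2.20, adjusted p = 0.0418). Kmo was also below both naïve spleens in PyMT-S 2 (3.73).

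Lysosomal, iron and interferon genes gave a few falls each. Of 29 lysosomal genes, 3 were lower at 0.05 with all 5 arrays and without PyMT-S 2, against 1.67% and 2.74% of all genes. Ctss, a cathepsin of antigen processing, had 5.90 to 6.55 against 8.07 and 7.85, and the cholesterol carrier Npc2 had 7.24, 7.12 and 7.06 against 8.82 and 8.81. The differences were -1.74 (adjusted p = 0.0202) and -1.67 (adjusted p = 0.0163), and -1.58 and -1.66 (adjusted p = 0.0274 and 0.02) without PyMT-S 2. In both genes no PyMT spleen reached a naïve one, as in all 726 probes lower at 0.05 with all 5 arrays. The proton pump subunit Atp6v1a differed by -1.92 (adjusted p = 0.0489), and by -2.41 (adjusted p = 0.0105) without PyMT-S 2. Of 20 iron and haem genes, 1 was lower at 0.05 with all 5 arrays (5%, against 1.67% of all genes) and 3 without PyMT-S 2 (15%, against 2.74%). Ftl1, the ferritin light chain, fell by 1.53 (adjusted p = 0.0331), and by 1.23 (adjusted p = 0.0337) without PyMT-S 2. Aco1 (-3.22, adjusted p = 0.0494) and Ireb2 (-0.92, adjusted p = 0.0479) passed without PyMT-S 2 only. Of 49 interferon-stimulated genes, 2 were lower at 0.05 with all 5 arrays (4.08%, against 1.67% of all genes) and 2 without PyMT-S 2 (4.08%, against 2.74%). Trim30a differed by -1.62 (adjusted p = 0.019), and by -1.69 (adjusted p = 0.0188) without PyMT-S 2. Ifi27l2a differed by -1.57 (adjusted p = 0.0466), which was lost without PyMT-S 2 (adjusted p = 0.0553). Oasl2 passed there alone, with -2.15 (adjusted p = 0.0405, and 0.0624 with all 5 arrays). All 3 encode proteins that interferon induces. In bone marrow the PyMT array differed from the naïve arrays by -1.69 for Trim30a, -0.90 for Ctss, -1.10 for Npc2 and -1.30 for Ftl1, each below both, and by -0.01 for Ifi27l2a. Across all lists, 37 of 859 measured genes were lower at 0.05 without PyMT-S 2, against 2.74% of all genes. PyMT-BM 1 lay below both naïve bone marrow arrays in 32 of the 37, and in 87.9% of all 1250 probes lower at 0.05 without PyMT-S 2.

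Several lists held no member at 0.05 in either comparison at the brightest probes. Among these were the chemokine ligands (34 genes), the chemokine receptors (22), the inflammatory cytokines and enzymes (23), the pattern recognition genes (24) and the ribosomal proteins (55). Without PyMT-S 2, 20 pattern recognition genes had a negative difference and 4 a positive one (median -0.47). A dimmer probe of Myd88, of that list, had means of 7.29 in the PyMT and 9.11 in the naïve spleens. It differed by -1.83 (adjusted p = 0.0142 by limma), and by -1.93 (adjusted p = 0.0138) without PyMT-S 2. Il1b, the cytokine of inflamed myeloid cells, had 12.75, 12.37 and 11.78 against 12.63 and 12.61 (difference -0.32, SE 0.35, and -0.35, SE 0.39, without PyMT-S 2). Cxcr2, the chemokine receptor of neutrophils, had 9.32, 10.85 and 8.05 against 9.75 and 10.17 (difference -0.55, SE 0.81, and -1.28, SE 0.77, without PyMT-S 2).

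Each monocyte list had 1 member lower at 0.05 in both comparisons, of 16 classical and 18 nonclassical genes, against 1.67% and 2.74% of all genes. Clec4a3, a lectin of classical monocytes, had 9.10, 8.85 and 9.15 against 10.09 and 10.22 (difference -1.12, adjusted p = 0.0335, and -1.03, adjusted p = 0.0373, without PyMT-S 2). A dimmer Clec4a3 probe was called at 0.01, with a difference of -2.94 (adjusted p = 0.0068). Adgre4, an adhesion receptor of nonclassical monocytes, differed by -2.01 (adjusted p = 0.0322), and by -1.62 (adjusted p = 0.0382) without PyMT-S 2. Ccr2, which monocytes need to leave the marrow, had 4.05, 7.23 and 5.33 against 6.36 and 5.51. Cx3cr1, of patrolling monocytes, had 6.42, 7.76 and 6.38 against 7.81 and 6.99. For both genes PyMT-S 1 and PyMT-S 3 lay below both naïve spleens and PyMT-S 2 above at least 1, and neither passed the test. The Ccr2 difference was -0.40 (adjusted p = 0.807), or -1.25 (adjusted p = 0.213) without PyMT-S 2, and that of Cx3cr1 -0.54 (adjusted p = 0.609, and 0.266 without PyMT-S 2). Single arrays spread widely, and groups that do not overlap are common with 3 against 2 arrays: 18.8% of all genes had every PyMT spleen above both naïve ones and 15% below.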

How the data were processed

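Biotin-labeled RNA of sorted cells was read on Illumina MouseWG-6 v2 arrays. The deposited values are log2 signals, which the authors background-corrected and quantile normalized (GenomeStudio 2011.1 and limma, per the labels). The number of arrays limits precision, and so do signals near background or near the top of the scale. RNA quality and the purity of the sort were not tested. The method of background correction is not given in the sources used here. The study's methods name 1 PyMT spleen more than the 3 arrays used here. Probes were named through the platform annotation: 34885 of 45281 had 1 symbol, 18 several and 10378 none, and 1254 probes of X and Y genes were left out by RefSeq (GRCm38.p6). A gene was taken at its brightest probe. With R 4.3.3 and limma 3.58.1, lmFit and eBayes were run on 14 arrays in 6 conditions, or without PyMT-S 2. P-values are two-sided and were adjusted by Benjamini-Hochberg across the 45281 probes, and a probe was called at 0.01. The fit was tested on simulated data. Replicate numbers did not pair the spleens (correlation of deviations -0.06 and -0.09). The genes, lists and comparisons were chosen with earlier results of these data known. Named were the 12 largest non-overlapping calls each way, 3 genes a list and the defining genes of the cell types. Some listed genes are not used here. Alternatives were other arrays in the fit, variance models, blocks, filters, scalings, probe averages, thresholds, the methods' t-test and leaving out each spleen array.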

Additional observations from a re-analysis of the deposited data

How the results depend on the processing

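The counts of called probes rested on the arrays and on the variance model. With all 5 arrays 49 probes were called, and without PyMT-S 2 161. With the spleen arrays alone, with spleen and bone marrow arrays, by the methods' t-test, with the replicate block by title number and with the probes of a gene averaged, 0 were called in either comparison, and unadjusted p-values under 0.05 ranged from 3501 to 8841 probes or genes. The naïve bone marrow arrays taken as 1 sample gave 0 and 3. A threshold of 0.05 gave 1139 and 1925, a mean-variance trend 240 and 940, and probes with a mean of at least 5 gave 280 and 824. Named probes gave 31 and 71, and centring on the reference genes 8 and 45, of which 62.5% and 42.2% were higher, against 22.4% and 23.0%. Centring moved the median of all genes from 0.04 to 0.16 with all 5 arrays. Without PyMT-S 2, robust variance gave 107, the mouse code as a random block 80, and cyclic loess 84, of which 33.3% were higher.

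Leaving out each spleen array gave 0 to 161 called probes with all 5 arrays: 23 without PyMT-S 1, 161 without PyMT-S 2, 0 without PyMT-S 3, 4 without naïve-S 1 and 14, all higher, without naïve-S 2. Without PyMT-S 2 it gave 0 to 135, with 0 when either naïve spleen was left out. For spleen minus bone marrow it gave 0 to 1 probes, the latter without naïve-S 2, and 0 under the other alternatives. None of the 24 called genes that are named changed sign under an alternative, but each lost its call under some. For Pla2g7 the difference ranged from -2.67 to -2.25 and the adjusted p from 0.00273 to 0.324, and for Hsp90aa1 from -2.03 to -0.79, the least where its probes were averaged. The replicate numbers did not pair the spleens, and the cause of these losses was not tested. Dim probes limit the folds.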
